A study of Mus musculus with 9 samples.

Results

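The genes described here are 3 cystatins, Cst6, Cst3 and Cstb, and 7 lysosomal proteases, legumain (Lgmn) and the cathepsins Ctsb, Ctsl, Ctsk, Ctsz, Ctsc and Ctsd, taken by gene name from the 42454 names in the deposited tables of 9 mouse tumours. The set was selected on the measured level of Cst6, chosen because its CPM was lower in CD43-KO tumours, so the contrast of Cst6 between the groups is given as a description, with no test. All 10 genes passed the filter on low counts. The groups were 5 CD43-KO tumours, grown from MC38 cells lacking CD43, and 4 Vec tumours, grown from vector MC38 cells of WT genotype. MC38 is a mouse colorectal carcinoma line, the hosts of both groups were C57BL/6J mice, and whole tumours were taken at day 21 after inoculation. The age and sex of the mice, the number of knockout clones and the way the knockout was made are not stated in the labels, and nothing in the labels says that the tumours came from separate cell cultures, so p-values measure the spread between these tumours. CD43, a leukocyte membrane sialoglycoprotein encoded by Spn, was, per the labels, knocked out in the implanted MC38 cells.

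Cathepsins are the proteases that digest proteins in lysosomes and endosomes. Most are cysteine proteases, Ctsd is an aspartic protease, and legumain cuts after asparagine and trims several cathepsins to their mature chains. Cystatins are tight-binding inhibitors of these cysteine proteases: cystatin C (Cst3) and cystatin E/M (Cst6) are secreted, stefin B (Cstb) stays in the cell, and Cst6 holds a second site that binds legumain. In tumours both carcinoma cells and macrophages are known sources of cathepsins.

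Total counts per library were 44814061 to 62194418 in CD43-KO and 60751738 to 72114385 in Vec tumours. CD43-KO replicate 3 had the lowest total and was the most distant along principal component 1, which held 34.9% of the variance: it scored 100, and the remaining tumours -45.6 to 51.2. Spn was at 25.6, 33.6, 31.2, 23.0 and 6.81 CPM (counts scaled to the same library total) in CD43-KO replicates 1 to 5, against 41.0, 43.7, 44.6 and 53.8 CPM in Vec replicates 1 to 4 (edgeR log2 fold change -0.93 ± 0.36 SE, adjusted p = 0.281), so every CD43-KO tumour lay below every Vec tumour and all held transcripts. The simple-epithelial keratins Krt8 and Krt18, markers of colon epithelium, were near 0, with means of 0.080 and 0.10 CPM in CD43-KO and 0.087 and 0.066 CPM in Vec tumours. A list of 8 epithelial genes, these keratins among them, summed to 8.24 to 16.8 CPM in CD43-KO and to 9.21 to 15.7 CPM in Vec tumours, most of it from E-cadherin, Cdh1, at 11.45 CPM in CD43-KO and 10.53 CPM in Vec tumours, while Epcam was at 0.52 CPM in CD43-KO and 0.65 CPM in Vec tumours, and Krt19 at 0.61 CPM in CD43-KO and 0.60 CPM in Vec tumours. Whole tissue was sequenced, so fewer cells of a type and less RNA per cell cannot be told apart in any value below. All levels are CPM scaled with TMM factors, and each log2 fold change is CD43-KO over Vec from an edgeR quasi-likelihood fit over 18243 names.

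Only Cst6 separated the groups, and that separation chose the set. Of the other 9 genes 8 had a log2 fold change above 0, all 7 proteases among them, but in each of these 9 genes the groups overlapped, and 0 of the 9 passed at an adjusted p of 0.05. The edgeR test called 0% of all names higher and 0% lower in CD43-KO tumours. At an unadjusted p under 0.05, 1 of the 9, Ctsc, was reached, in the higher direction, where 7.75% of all names were higher and 7.63% lower, 15.4% in all. DESeq2 and limma voom with quality weights called 0 of the 9, beside 1.48% of names higher and 2.18% lower by DESeq2 and 1.04% higher and 2.04% lower by limma voom. The median log2 fold change was 0.31 over the 10 genes, with Cst6 among them, and 0.03 over all names tested.

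**Figure D1:**
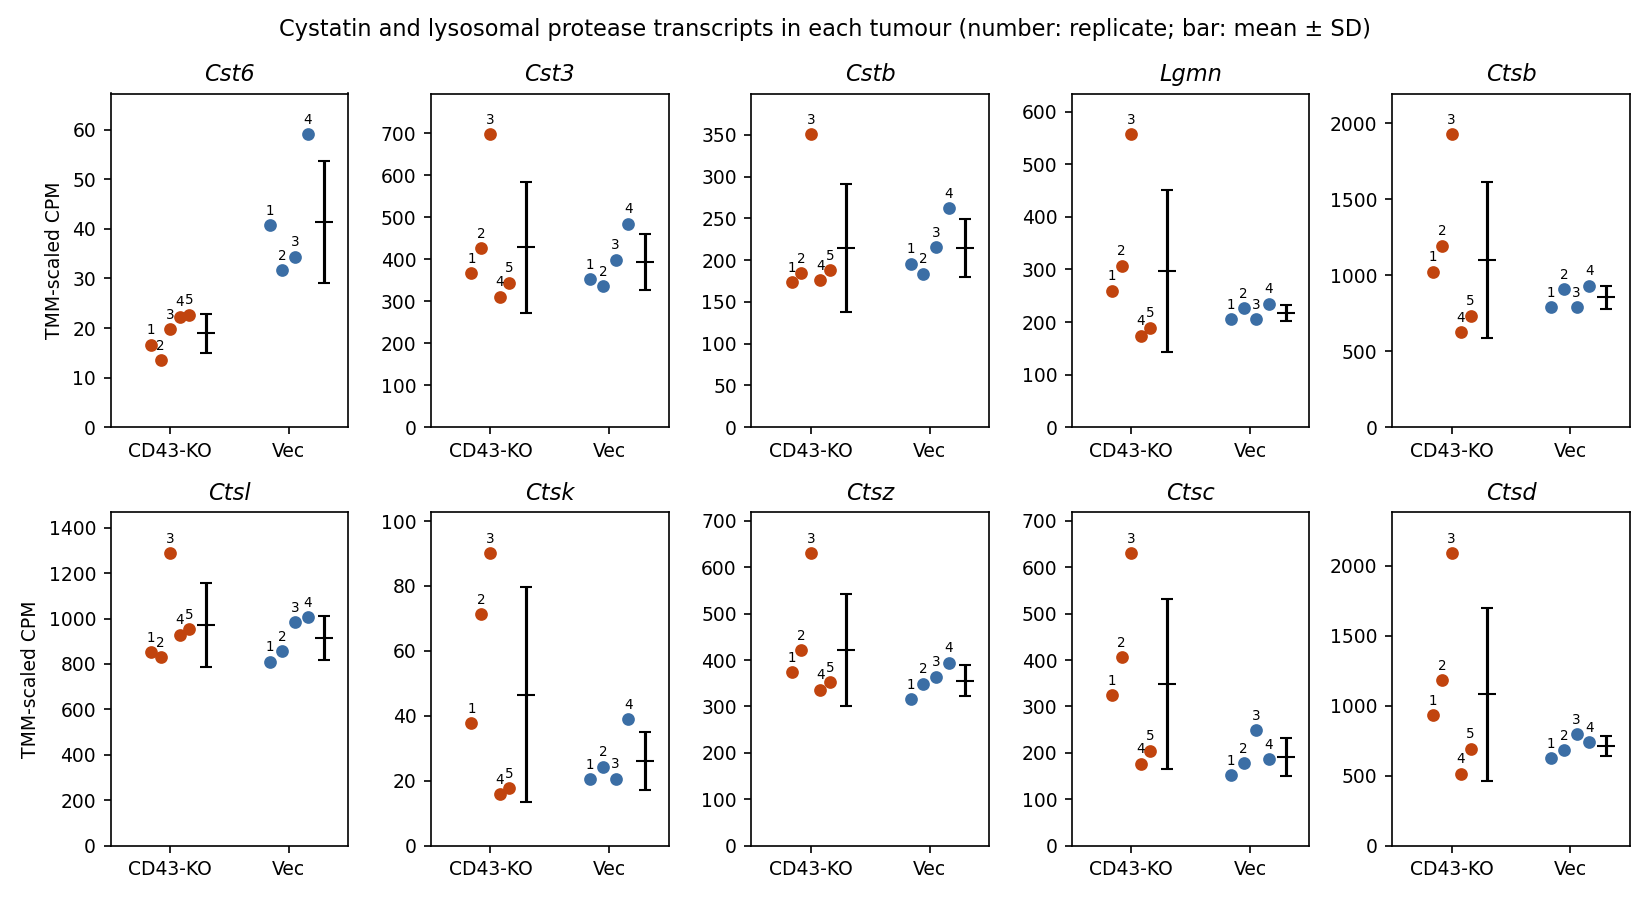
Level of each of the 10 genes (TMM-scaled CPM, linear axes from 0) in CD43-KO and Vec tumours, with points numbered by replicate and bars for the mean ± SD of 5 CD43-KO and 4 Vec tumours. Cst6 is the gene whose groups do not overlap, and CD43-KO replicate 3 is the highest tumour for the other 9 genes.

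Cst6 lies at chr19:5344705-5349574 on the minus strand (GRCm38). It was at 16.7, 13.5, 19.7, 22.3 and 22.7 CPM in CD43-KO replicates 1 to 5, against 40.7, 31.6, 34.3 and 59.0 CPM in Vec replicates 1 to 4. Every CD43-KO tumour lay below every Vec tumour, a pattern that 3.5% of all names tested had. The means were 18.95 ± 3.90 CPM in CD43-KO tumours and 41.4 ± 12.3 CPM in Vec tumours (SD, n = 5 and 4), a log2 fold change of -1.13 ± 0.21 (SE). Counts of 850 to 1341 in CD43-KO libraries and 2123 to 3197 in Vec libraries stood behind these levels. The log2 fold change ranged from -1.24 to -0.92 when each tumour in turn was left out.

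Cst6 is known from the epidermis and its appendages, where it restrains legumain and cathepsin L. Transcripts of a list of 10 keratinocyte genes were measurable in these tumours, though not each gene in each tumour. They summed to 553, 365, 312, 406 and 483 CPM in CD43-KO replicates 1 to 5, against 499.8, 346.5, 602 and 919 CPM in Vec replicates 1 to 4. The ranges overlapped, and none of the genes was at 0 in all libraries. By edgeR 9 of the 10 had a log2 fold change below 0 (median -1.37), but by limma voom with quality weights 5 were below and 5 above 0 (median 0.048). The most abundant of them, Krt14, averaged 384 ± 66.9 CPM in CD43-KO and 485 ± 135 CPM in Vec tumours. Krt14 made up nearly all of the sum in some tumours. It was at 356 and 290 CPM in CD43-KO replicates 2 and 3 and at 336 CPM in Vec replicate 2. Krt1, the next most abundant of the list by mean, was at 0.062, 0 and 0.03 CPM in these tumours. The sum thus does not show the whole list to be present in every tumour. The part of keratinocyte transcripts in the Cst6 difference was not tested.

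The genes around Cst6 on chromosome 19 were also mostly lower, by less. Of 8 tested genes that start within 100 kb of it, 7 had a log2 fold change below 0, with a range of -0.55 to 0.075 and a median of -0.35, and in 0 of the 8 did all CD43-KO tumours lie below all Vec tumours. Among them, Drap1, a corepressor subunit of transcription, was at 136 ± 21.1 CPM in CD43-KO and 180.5 ± 31.8 CPM in Vec tumours (-0.41 ± 0.14 log2, edgeR adjusted p = 0.254). Sf3b2, a subunit of the spliceosome, was at 311 ± 37.1 CPM in CD43-KO and 390.1 ± 42.1 CPM in Vec tumours (-0.33 ± 0.11 log2, edgeR adjusted p = 0.255). Over the 568 tested genes of chromosome 19 the median log2 fold change was -0.10 and 64.6% lay below 0, against 0.03 and 45.9% over the 16682 tested genes with coordinates. Genes on one chromosome are not independent replicates, and the part of position in the Cst6 difference was not tested.

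**Figure D2:**
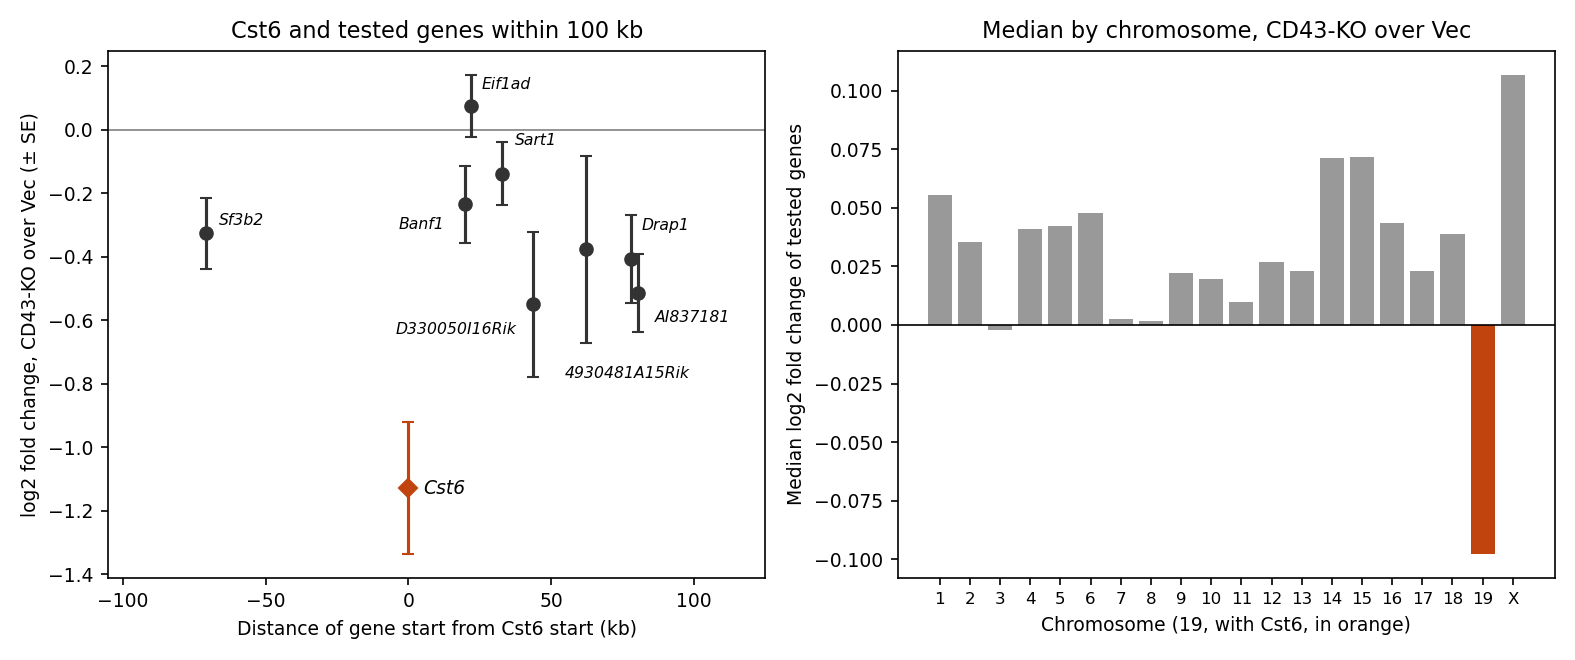
Left, log2 fold change (CD43-KO over Vec, ± SE) of Cst6 and of the 8 tested genes within 100 kb, against the distance of their start from that of Cst6 in kb. Right, the median log2 fold change of tested genes on each chromosome, with chromosome 19 at -0.10.

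The 5 genes whose levels across the 9 tumours were most like that of Cst6, by Pearson r of log2 CPM among 12465 genes with a mean of at least 1 CPM, were Exo5, Avpi1, Anxa1, Tpd52l2 and Asah1, with r of 0.98, 0.98, 0.97, 0.97 and 0.97. The values of r are given as a measure of likeness, without a test, and after centring each group on its own mean they were 0.94, 0.94, 0.92, 0.93 and 0.88. Avpi1 was at 73.8 CPM in CD43-KO and 140.5 CPM in Vec tumours. Anxa1, which encodes the phospholipid-binding protein annexin A1, was at 761 CPM in CD43-KO and 1102 CPM in Vec tumours. Both of these lie on chromosome 19, Exo5 on chromosome 4, Tpd52l2 on chromosome 2 and Asah1 on chromosome 8.

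The groups overlapped in the other cystatins. Cst3 (chr2:148871722-148875512, minus strand), the main secreted inhibitor of cysteine cathepsins in body fluids, was at 366, 426, 697, 310 and 344 CPM in CD43-KO replicates 1 to 5, against 352, 335, 398 and 484 CPM in Vec replicates 1 to 4. The groups overlapped, and only CD43-KO replicate 3 lay above every Vec tumour. The log2 fold change was 0.13 ± 0.23 (SE; 95% interval -0.38 to 0.63; edgeR adjusted p = 0.807), and without CD43-KO replicate 3 it was -0.13. Cstb (chr10:78425670-78427622, plus strand), the cytosolic stefin B, was at 173, 185, 351, 176 and 188 CPM in CD43-KO tumours, compared with 196, 184, 216 and 263 CPM in Vec tumours. In Cstb too, replicate 3 alone of the CD43-KO tumours exceeded the Vec range, and both means were 214.5 CPM (edgeR log2 fold change 0.00 ± 0.22 SE, 95% interval -0.48 to 0.48, adjusted p = 1.00). Without CD43-KO replicate 3 the log2 fold change of Cstb was -0.26.

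Legumain, the protease that Cst6 binds at its second site, had a higher mean in CD43-KO tumours but no uniform shift. Lgmn (chr12:102394082-102439728, minus strand) was at 260, 307, 557, 174 and 189 CPM in CD43-KO replicates 1 to 5, against 205, 226, 205 and 235 CPM in Vec replicates 1 to 4. CD43-KO replicates 1 to 3 lay above all Vec tumours and replicates 4 and 5 below all of them, while the Vec tumours kept close together. The log2 fold change was 0.45 ± 0.31 (SE; 95% interval -0.23 to 1.13; edgeR adjusted p = 0.491), and 0.087 without CD43-KO replicate 3. Per kb of transcript, the ratio of Lgmn to Cst6 was 31.0, 45.3, 56.0, 15.5 and 16.6 in CD43-KO tumours, compared with 7.90 to 14.2 in the 4 Vec tumours. That ratio holds Cst6, which chose the set, so its lack of overlap is only a description.

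The endopeptidases Ctsb, Ctsl and Ctsk differed in how they varied. Ctsb (chr14:63122462-63145923, plus strand), an endopeptidase that also trims dipeptides from the C-terminus, was at 1025, 1195, 1928, 623 and 733 CPM in CD43-KO tumours, compared with 791, 910, 789 and 932 CPM in Vec tumours. As in Lgmn, CD43-KO replicates 1 to 3 lay above and replicates 4 and 5 below every Vec tumour (edgeR log2 fold change 0.36 ± 0.29 SE, adjusted p = 0.554; 0.057 without CD43-KO replicate 3). Ctsl (chr13:64361890-64370772, minus strand), an endopeptidase that Cst6 inhibits, was at 852, 829, 1289, 930 and 954 CPM in CD43-KO tumours, compared with 810, 855, 983 and 1005 CPM in Vec tumours. Apart from CD43-KO replicate 3, no CD43-KO tumour left the Vec range of Ctsl, and the log2 fold change was 0.09 ± 0.14 (SE; 95% interval -0.23 to 0.40; edgeR adjusted p = 0.781), or -0.042 without that tumour. Ctsk (chr3:95499210-95509387, plus strand), the collagen-degrading cathepsin known from osteoclasts, was at 37.8, 71.3, 90.2, 15.8 and 17.6 CPM in CD43-KO tumours, compared with 20.5, 24.3, 20.6 and 39.0 CPM in Vec tumours. The CD43-KO tumours thus held both the highest and the lowest Ctsk levels of the study (edgeR log2 fold change 0.83 ± 0.52 SE, adjusted p = 0.446; 0.44 without CD43-KO replicate 3). A list of 6 osteoclast genes summed to 25.6 to 60.9 CPM in CD43-KO and to 28.0 to 37.4 CPM in Vec tumours. Its most abundant genes, both also expressed by macrophages, were Acp5 at 19.4 ± 12.1 CPM in CD43-KO and 12.4 ± 1.42 CPM in Vec tumours, and Mmp9 at 15.3 ± 3.96 CPM in CD43-KO and 16.9 ± 3.63 CPM in Vec tumours. Dcstamp was at 2.06 ± 0.56 CPM in CD43-KO and 1.10 ± 0.59 CPM in Vec tumours (edgeR adjusted p = 0.277), and Calcr and Oscar did not pass the filter on low counts, at 0 and 0.052 CPM in CD43-KO and 0.0079 and 0.093 CPM in Vec tumours.

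The exopeptidases are Ctsz and Ctsc. Ctsz (chr2:174427494-174439039, minus strand), a carboxypeptidase also called cathepsin X, was at 373, 421, 631, 336 and 352 CPM in CD43-KO tumours, compared with 315, 349, 364 and 395 CPM in Vec tumours. CD43-KO replicates 2 and 3 exceeded the Vec range (edgeR log2 fold change 0.25 ± 0.18 SE, adjusted p = 0.513; 0.052 without CD43-KO replicate 3). Ctsc (chr7:88278024-88315861, plus strand), the dipeptidyl peptidase that activates granzymes and neutrophil serine proteases, was at 325, 406, 631, 177 and 205 CPM in CD43-KO tumours, compared with 151, 178, 249 and 187 CPM in Vec tumours. Its log2 fold change was 0.86 ± 0.35 (SE; 95% interval 0.088 to 1.64), and 3 of 5 CD43-KO tumours lay above all Vec tumours. It passed neither the edgeR test (adjusted p = 0.291, unadjusted p = 0.0326) nor the DESeq2 test (adjusted p = 0.115), and the log2 fold change was 0.53 without CD43-KO replicate 3.

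Ctsd (chr7:142375910-142387827, minus strand), an aspartic protease that cystatins do not inhibit, had the CD43-KO tumours in the same order as Ctsc. It was at 930.1, 1183, 2091, 514 and 694 CPM in CD43-KO tumours, compared with 626, 682, 796 and 737 CPM in Vec tumours. CD43-KO replicates 1 to 3 lay above all Vec tumours and replicate 4 below them (edgeR log2 fold change 0.61 ± 0.35 SE, 95% interval -0.17 to 1.39, adjusted p = 0.418; 0.22 without CD43-KO replicate 3).

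**Figure D3:**
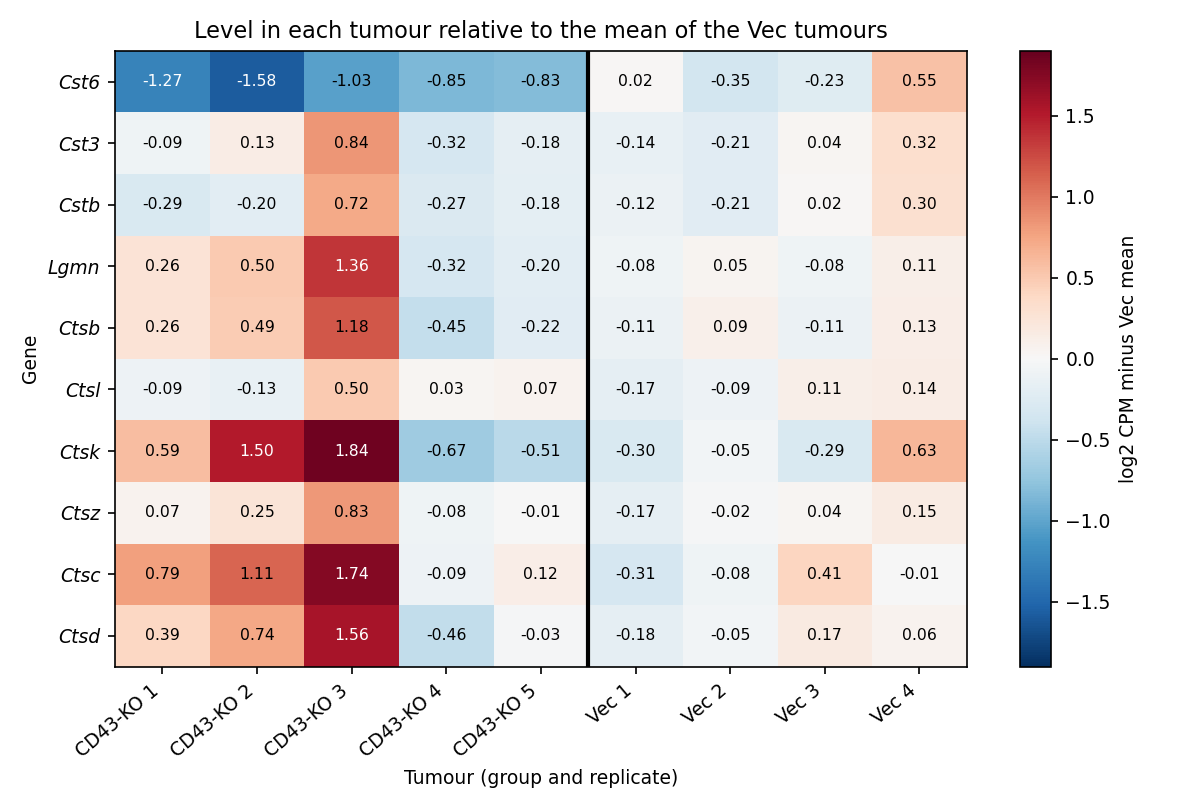
Level of each gene in each tumour as the difference of log2 CPM from the mean of the Vec tumours, with CD43-KO tumours left of the line and Vec tumours right of it. Cst6 is below 0 in all 5 CD43-KO tumours, and Lgmn, Ctsb, Ctsc and Ctsd are above every Vec tumour in CD43-KO replicates 1 to 3.

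Most of the 10 genes shared a wide spread among CD43-KO tumours. How many of all names share the patterns below was not counted. CD43-KO replicate 3 was also the most distant tumour on principal component 1, so the patterns are not shown to be particular to these genes. CD43-KO replicate 3 was the highest of the 9 tumours for 9 genes, and CD43-KO replicate 4 was the lowest for 5. CD43-KO replicates 4 and 5 lay below replicates 1 to 3 in 7 genes, and in 4 genes, Lgmn, Ctsb, Ctsc and Ctsd, replicates 1 to 3 were all above the Vec range. The SD of log2 CPM was larger in CD43-KO than in Vec tumours for 9 genes, as in Lgmn with 0.67 in CD43-KO and 0.099 in Vec tumours. Cst6 was the exception, with an SD of 0.32 in CD43-KO and 0.40 in Vec tumours. The 10 genes together took 0.464%, 0.526%, 0.796%, 0.335% and 0.387% of all counts in CD43-KO replicates 1 to 5, against 0.348%, 0.380%, 0.400% and 0.387% in Vec replicates 1 to 4.

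Levels were set against each other per kb of the longest principal transcript. Over all 9 tumours the order of mean CPM per kb was Cst3 at 480 ± 138, Ctsd at 431 ± 226, Cstb at 356 ± 96.1, Ctsz at 273 ± 65.6, Ctsb at 209 ± 82.1, Ctsl at 153 ± 23.8, Lgmn at 132 ± 59.1, Ctsc at 112 ± 62.4, Ctsk at 24.8 ± 17.4 and Cst6 at 7.33 ± 3.63 (SD). Cst3 exceeded Ctsd in 6 of 9 tumours and Ctsd exceeded Cstb in 6, so these neighbours kept no fixed order, nor did Ctsb and Ctsl, Ctsl and Lgmn, or Lgmn and Ctsc, where the first was higher in 7, 7 and 8 tumours. Cstb was above Ctsz, Ctsz above Ctsb, Ctsc above Ctsk and Ctsk above Cst6 in all 9. With the length of all annotated exons in place of 1 transcript, Ctsd came first at 390.1 and Cst3 was at 326 CPM per kb.

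Cst6 was thus the smallest part of the cystatin transcripts per kb. The summed level of the 7 proteases was 1336, 1599, 2628, 926 and 1069 CPM per kb in CD43-KO tumours, compared with 989, 1094, 1169 and 1199 CPM per kb in Vec tumours. That of the 3 cystatins was 717, 805.5, 1396, 659 and 717 CPM per kb in CD43-KO tumours, compared with 745, 703, 829.8 and 1014 CPM per kb in Vec tumours. The ratio of the protease sum to the cystatin sum was 1.86, 1.99, 1.88, 1.40 and 1.49 in CD43-KO tumours, compared with 1.33, 1.56, 1.41 and 1.18 in Vec tumours. CD43-KO replicates 1 to 3 lay above the Vec range of this ratio and replicates 4 and 5 within it.

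Macrophage transcripts varied across the tumours in much the same order as Lgmn, Ctsb, Ctsc and Ctsd. Ctsl did not follow that order, at 852 and 829 CPM in CD43-KO replicates 1 and 2 and 930 and 954 CPM in replicates 4 and 5. Macrophages are rich in lysosomes and express most of these cathepsins. All 12 genes of a macrophage list were above 0 in log2 fold change (median 0.61), and none was at 0 in all libraries. Their summed level was 5497, 6598, 10500, 2749 and 4130 CPM in CD43-KO replicates 1 to 5, against 2904, 3481, 4693 and 3367 CPM in Vec replicates 1 to 4. CD43-KO replicates 1 to 3 were the highest tumours, and replicate 4 the lowest. The most abundant of the list was Lyz2, lysozyme, at 4138 ± 2141 CPM in CD43-KO and 2432 ± 780.5 CPM in Vec tumours. Lyz2 made up most of the sum, as in Vec replicate 3 with 3571 of 4693 CPM. A pan-leukocyte list of 6 genes, all with a log2 fold change above 0, summed to 439 to 1378 CPM in CD43-KO and to 457 to 597 CPM in Vec tumours. In CD43-KO replicate 3 muscle transcripts, from a list of 9 genes, summed to 1211 CPM and fat transcripts, from a list of 8, to 635.5 CPM. The other CD43-KO tumours had 83.0 to 134 CPM of muscle and 33.7 to 71.0 CPM of fat transcripts, and the Vec tumours 104 to 124 CPM of muscle and 54.0 to 83.2 CPM of fat transcripts. The part of these cells in the levels of the proteases was not tested.

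**Figure D4:**
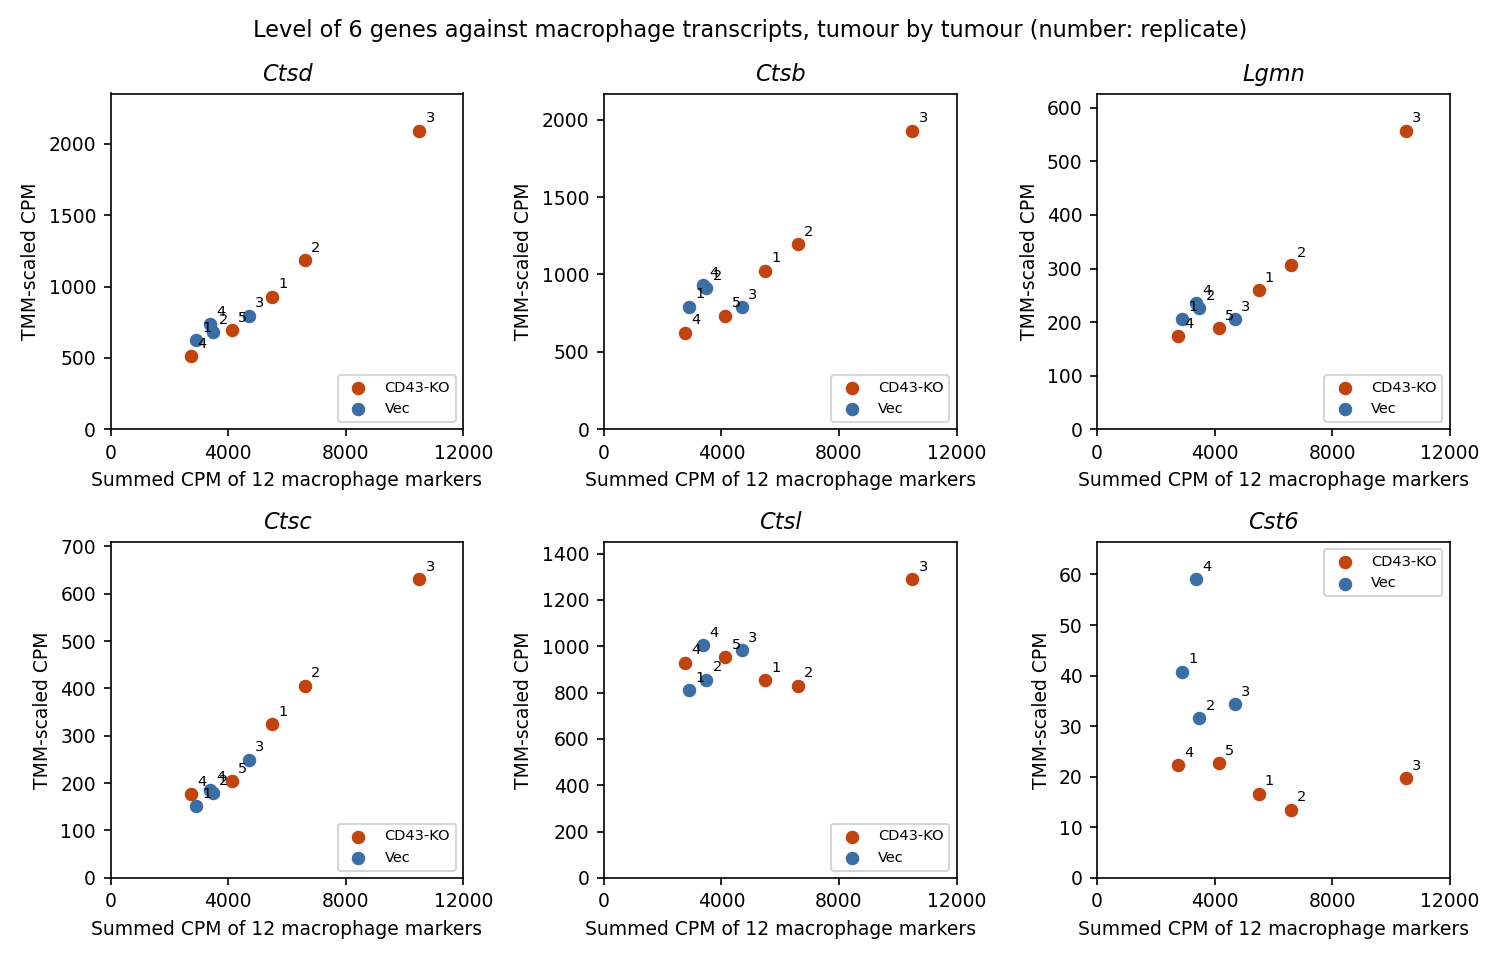
Level of 6 of the genes (TMM-scaled CPM) against the summed CPM of 12 macrophage markers in each tumour, numbered by replicate. CD43-KO replicates 1 to 3 lie to the right, up to 10500 CPM of markers, and Cst6 is below every Vec tumour in CD43-KO tumours on both sides of the marker range.

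A macrophage score, the mean log2 CPM of the list, split the tumours into CD43-KO replicates 1 to 3 and the other 6 tumours, so no relation over all 9 is given. The score ordered some of the 6 otherwise than the sum. Relative to the Vec mean it was -0.053 in CD43-KO replicate 5 and 0.054 in Vec replicate 2. Within the 6 tumours, relations of the 10 genes to the score were tested by exact permutation over all pairings, two-sided, with p-values adjusted over 20 relations together with those to a fibroblast score. Cst6, whose levels chose the set, entered the adjustment but is given as a description. None of the other 9 genes passed. Ctsd had a Pearson r of 0.89 and a Spearman rho of 0.71 (exact permutation p = 0.0153 and 0.136, adjusted 0.0532 and 0.246), and r was 0.17 without the 2 tumours farthest from the median. Ctsb had r of 0.88 and rho of 0.83 (exact permutation p = 0.0181 and 0.0583, adjusted 0.0532 and 0.190), and Lgmn r of 0.85 and rho of 0.94 (exact permutation p = 0.0319 and 0.0167, adjusted 0.0799 and 0.0667). Without the 2 farthest tumours r was 0.94 for Ctsb and 0.96 for Lgmn. Ctsc had r of 0.43 (adjusted exact permutation p = 0.464), and -0.36 without those 2 tumours. Cst6 had r of 0.55 and rho of 0.60, which hold the gap between the groups, and r was 0.073 after centring each group on its own mean. The uncentred r of Cst6 turned to -0.077 when libraries were scaled by total counts alone.

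Of the 10 genes, Ctsk had the highest r with the fibroblast score. The fibroblast list of 10 genes, led by Col3a1 and Col1a2, summed to 3775, 5967, 4044, 2450 and 2195 CPM in CD43-KO tumours, compared with 4400, 4316, 3159 and 3685 CPM in Vec tumours. In log2 fold change 7 genes were above 0 and 3 below, Col3a1 among these at -0.63, and none was at 0 in all libraries. The score, a mean of log2 CPM, ordered the tumours otherwise than the sum. Relative to the Vec mean it was 0.26, 0.82 and 0.52 in CD43-KO replicates 1 to 3, the highest tumours in the macrophage score too. In Vec replicates 1 and 2 it was 0.041 and 0.021. Over 9 tumours Ctsk had r of 0.90 with the mean log2 CPM of this list and rho of 0.80 (exact permutation p = 0.000865 and 0.0138, adjusted 0.0173 and 0.0667 over 20 relations). The value of r was 0.78 without CD43-KO replicates 2 and 3, the farthest from the median, and 0.90 after centring each group. The adjusted p of r was above 0.05 when libraries were scaled by total counts alone (0.0515), and without CD43-KO replicate 1 (0.0739), CD43-KO replicate 4 (0.0680) or Vec replicate 3 (0.0536).

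The other relations to fibroblast transcripts rested on either r or rho, or on neither. Ctsb had r of 0.82 and rho of 0.90 (exact permutation p = 0.00682 and 0.00203, adjusted 0.0532 and 0.0406), and Lgmn r of 0.78 and rho of 0.85 (exact permutation p = 0.0119 and 0.00607, adjusted 0.0532 and 0.0607). For Ctsd r was 0.78 and for Ctsc 0.76, both with an adjusted exact permutation p of 0.0532. Ctsl, at r of 0.061, and Cstb, at r of 0.31, had the weakest relations (adjusted exact permutation p = 0.875 and 0.470). Cst6, given as a description, had r of -0.46, and -0.57 after centring each group. The fibroblast and macrophage scores were both highest in CD43-KO replicates 2 and 3, so the relations to them are not independent.

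Many lysosomal genes carry near their start an E-box, CACGTG, the core of the element that the lysosomal transcription factor TFEB binds. The motif was searched for in windows of 300 bases, from 250 before to 50 after the start of each RefSeq promoter (GRCm38.p6), where 7 of the 10 genes had 8 windows. CACGTG reads the same on both strands, so 1 search covers both. It was in 3 of the 8 windows, those of Ctsd, Lgmn and Ctsl, and in 7.15% of all 32851 windows. The windows of Cst3, Ctsz, Ctsk and Ctsc held none, nor did the other Lgmn window, and Cst6, Cstb and Ctsb had no window. The matches are shown as the members' only copies of the motif in these windows. Ctsc, which had no match, and Ctsb, which had no window, were above the Vec range in CD43-KO replicates 1 to 3 as Ctsd and Lgmn were. A relation of the motif to the levels was not tested. Each match is printed 5′ to 3′ on the strand of the gene, with the motif in capitals. Its first base is counted from the start site of its window. That start is the first base of the gene as given above for Ctsd, but lies 636 bases inside it for Lgmn and 252 bases inside it for Ctsl.
Ctsd at -245, chr7:142388048-142388077, minus strand: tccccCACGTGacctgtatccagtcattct
Ctsd at -98, chr7:142387908-142387937, minus strand: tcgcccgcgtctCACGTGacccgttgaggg
Lgmn at -49, chr12:102439124-102439153, minus strand: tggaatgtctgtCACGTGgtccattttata
Ctsl at -236, chr13:64370739-64370768, minus strand: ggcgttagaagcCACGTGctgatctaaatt
The longer form GTCACGTG, on either strand and holding the shorter motif, was in the Ctsd and Lgmn windows and in 2.25% of all windows. The palindrome TCACGTGA, which holds it too, was in the Ctsd window and in 0.974% of all. A match is not a measured site. Tfeb itself was at 9.50 ± 1.72 CPM in CD43-KO and 8.95 ± 1.26 CPM in Vec tumours (edgeR log2 fold change 0.09 ± 0.16 SE, adjusted p = 0.813).

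Beyond the 10 genes, 5 lists of related genes held 107 names, of which 106 were listed and 93 tested. The edgeR test called 0 of the 93 in either direction. At an unadjusted p under 0.05, 7.53% were higher and 5.38% lower, 7 and 5 genes, beside 7.75% and 7.63% of all names. DESeq2 called 0 higher and 2 lower, Serpinb1a and Asah1, or 2.15%, beside 2.18% of all names. The log2 fold change was above 0 in 66 and below 0 in 27, a smaller share below 0 than the 45.9% of all tested genes with coordinates. All CD43-KO tumours lay above all Vec tumours in Galc and Gnptab, 2 of 92 genes or 2.17%, beside 2.08% of all names. Ctse, which passed the filter through the CD43-KO libraries alone, is left out of that count. With Ctse the count was 3 of 93, or 3.23%, and no such genes were taken out of the 2.08% of all names. It is still among the 7 genes higher at an unadjusted p under 0.05 and the 66 above 0. All CD43-KO tumours lay below all Vec tumours in Serpinb1a and Asah1, 2.15% of the 93, beside 3.5% of all names. The shares that were called, had an unadjusted p under 0.05 or, with Ctse left out, did not overlap were thus near or below those of all names. The share above 0 was not.

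Of 11 other cathepsins and cathepsin-like genes, 9 were tested. With Ctse counted, 8 had a log2 fold change above 0 and the median was 0.72, beside 0.03 over all names. Ctss, the cathepsin of antigen-presenting cells that degrades the invariant chain, was at 773, 963, 2534, 301 and 528 CPM in CD43-KO tumours, compared with 320, 351, 561 and 347 CPM in Vec tumours (edgeR log2 fold change 1.37 ± 0.54 SE, adjusted p = 0.289). Its tumours stood in much the order of Ctsc, with CD43-KO replicates 1 to 3 above all Vec tumours and replicate 4 below them. Ctse, an aspartic protease, had 5 to 28 counts in CD43-KO libraries and 0 counts in all Vec libraries, at least 5.16-fold higher against a floor of 3 counts per library. It passed the filter through the CD43-KO libraries alone, so its difference is only a description. Ctso was at 23.2 ± 3.87 CPM in CD43-KO and 29.4 ± 4.33 CPM in Vec tumours, and Ctsw, known from cytotoxic lymphocytes, at 8.29 ± 4.88 CPM in CD43-KO and 4.77 ± 1.21 CPM in Vec tumours. The carboxypeptidase Ctsa was at 215 ± 57.8 CPM in CD43-KO and 198.5 ± 20.7 CPM in Vec tumours.

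Of 25 other cystatins and cathepsin inhibitors, 13 were tested, 6 above 0 and 7 below 0, with a median log2 fold change of -0.65, or 0.20 over the 7 that are not stefin A genes. Serpinb1a, an intracellular inhibitor of neutrophil serine proteases, was at 18.9, 17.4, 23.4, 10.2 and 16.9 CPM in CD43-KO tumours, compared with 27.5, 25.2, 28.4 and 28.0 CPM in Vec tumours (edgeR log2 fold change -0.65 ± 0.19 SE, adjusted p = 0.209, DESeq2 adjusted p = 0.045). Its groups did not overlap, as in Cst6. Cst7, the leukocyte cystatin F, was at 5.93, 6.53, 13.7, 1.38 and 1.72 CPM in CD43-KO tumours, compared with 3.11, 2.93, 3.46 and 2.94 CPM in Vec tumours (edgeR log2 fold change 0.91 ± 0.59 SE, adjusted p = 0.466). The CD43-KO tumours thus lay on both sides of the Vec range of Cst7, in the order they had in Lgmn and Ctsb. The cathepsin inhibitors Serpina3g, at 102 ± 42.2 CPM in CD43-KO and 83.2 ± 12.9 CPM in Vec tumours, and Ctla2a, at 37.95 ± 24.7 CPM in CD43-KO and 30.2 ± 9.66 CPM in Vec tumours, were the most abundant by count. Fetub was at 0.13 ± 0.094 CPM in CD43-KO and 0.43 ± 0.49 CPM in Vec tumours. The 6 tested stefin A genes are similar copies whose reads may be split, which was not tested, so their values are uncertain. Of these Csta2 was at 1.62 ± 1.32 CPM in CD43-KO and 0.88 ± 0.44 CPM in Vec tumours, and the other 5 had log2 fold changes of -1.59 to -1.02. Of those 5, Stfa3 was at 25.5, 0.077, 0, 2.11 and 0.895 CPM in CD43-KO tumours, compared with 15.4, 0.03, 21.3 and 32.5 CPM in Vec tumours. It was thus near 0 in the same tumours as the keratinocyte gene Krt1, a likeness that was not tested.

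**Figure D5:**
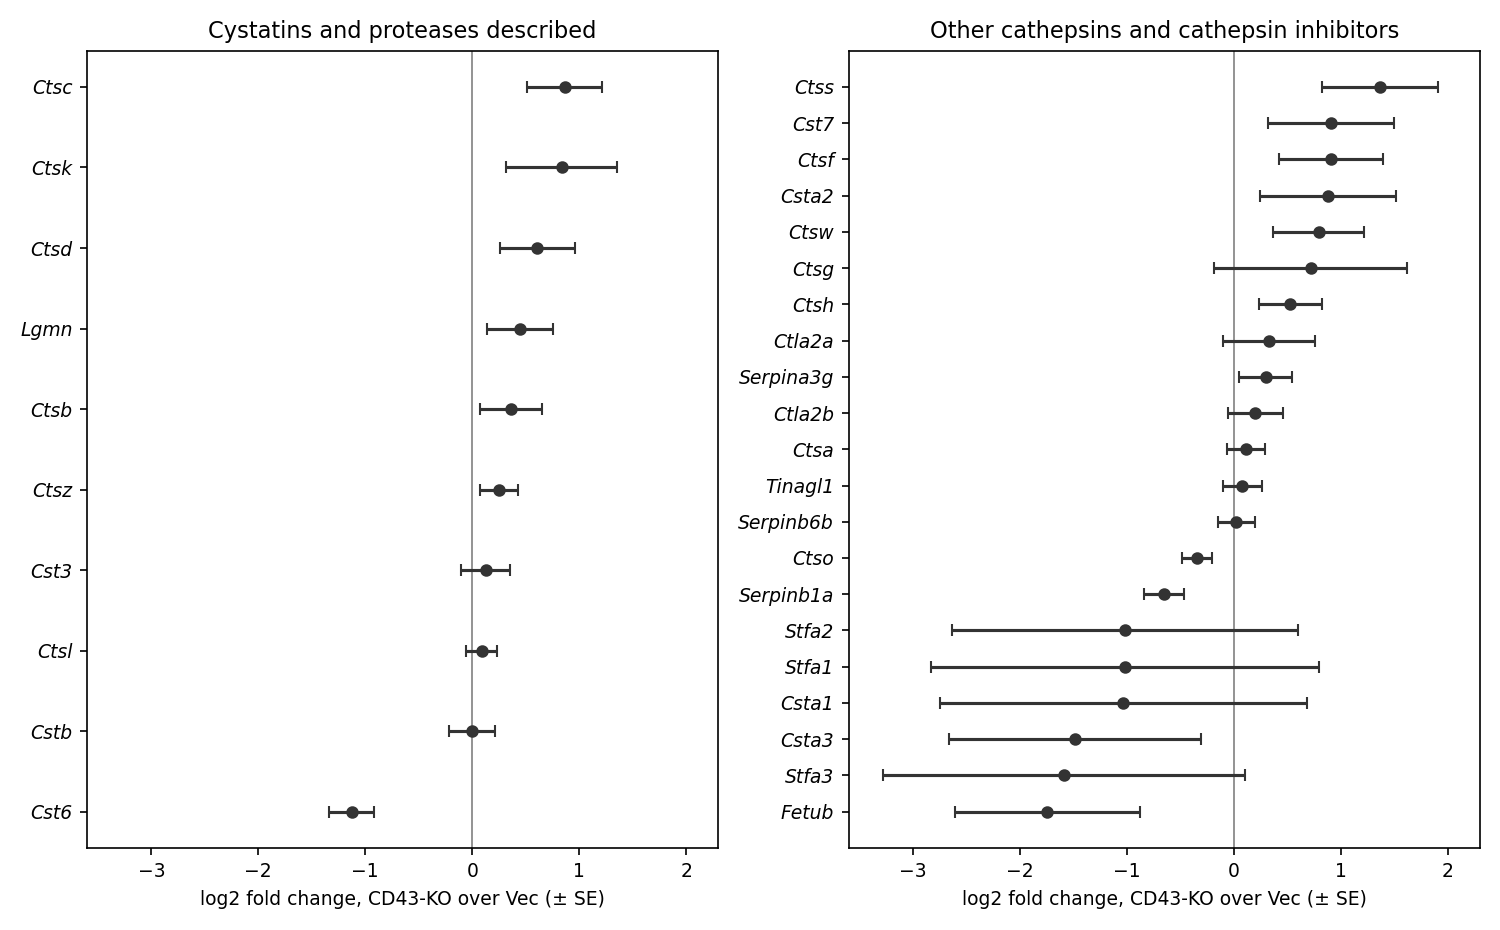
Log2 fold change (CD43-KO over Vec, ± SE) of the 10 genes on the left and of the other tested cathepsins, cathepsin-like genes and inhibitors on the right, in order of size. Ctse, which had 0 counts in Vec tumours, is left out. Cst6, given as a description with no test, is at -1.13 and Ctss at 1.37. Of the genes shown other than Cst6, none passed the edgeR test, which called 0% of all names higher and 0% lower.

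The remaining lysosomal genes had medians above the 0.027 of all names, by less than the other cathepsins. Of 35 hydrolases and their activators 23 were above 0 and 12 below 0 (median 0.098), and of 28 genes of the lysosomal membrane and of sorting 21 were above 0 and 7 below 0 (median 0.13). Asah1, acid ceramidase, was at 206, 199, 208, 229 and 229.7 CPM in CD43-KO tumours, compared with 258, 250.4, 256 and 273 CPM in Vec tumours (edgeR log2 fold change -0.28 ± 0.08 SE, adjusted p = 0.202, DESeq2 adjusted p = 0.0257). A second, copy-suffixed name of Asah1 was also counted, so its level is uncertain. Galc, which degrades galactosylceramide, was at 17.7 ± 1.71 CPM in CD43-KO and 14.5 ± 1.47 CPM in Vec tumours (edgeR adjusted p = 0.284). Gnptab, which builds the mannose 6-phosphate tag that sorts cathepsins to lysosomes, was at 51.1, 51.6, 52.6, 46.1 and 52.2 CPM in CD43-KO tumours, compared with 45.3, 41.0, 41.8 and 30.8 CPM in Vec tumours (edgeR log2 fold change 0.35 ± 0.11 SE, adjusted p = 0.236). Unlike the proteases, Gnptab varied little among the CD43-KO tumours. The cholesterol exporter Npc1 was at 46.8 ± 7.48 CPM in CD43-KO and 34.6 ± 4.70 CPM in Vec tumours, and the sorting receptor Sort1 at 6.85 ± 2.54 CPM in CD43-KO and 3.71 ± 1.29 CPM in Vec tumours (edgeR adjusted p = 0.235 and 0.256).

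Abundant lysosomal genes had overlapping groups. Psap, the precursor of the saposins and itself a binding partner of Ctsd, was at 1983 ± 868 CPM in CD43-KO and 1398 ± 89.1 CPM in Vec tumours (edgeR adjusted p = 0.392). The membrane protein Lamp1 was at 630.5 ± 137 CPM in CD43-KO and 642 ± 34.7 CPM in Vec tumours, and Cd63 at 555 ± 139 CPM in CD43-KO and 624 ± 85.5 CPM in Vec tumours. The cholesterol-binding protein Npc2 was at 524 ± 192 CPM in CD43-KO and 543 ± 72.4 CPM in Vec tumours. Smpd1, acid sphingomyelinase, and Laptm4a had log2 fold changes of -0.20 ± 0.09 and -0.26 ± 0.10 (SE). All 8 genes of the class II antigen pathway, where cathepsins process antigen and the invariant chain, had a log2 fold change above 0 (median 0.45), and none passed. The invariant chain Cd74 was at 1144 ± 507 CPM in CD43-KO and 832 ± 147.5 CPM in Vec tumours, and the class II regulator Ciita at 18.5 ± 6.51 CPM in CD43-KO and 13.0 ± 0.93 CPM in Vec tumours. The class II chains H2-Ab1, at 364 CPM in CD43-KO and 246 CPM in Vec tumours, and H2-Aa, at 286 CPM in CD43-KO and 191 CPM in Vec tumours, also had copy-suffixed names and are uncertain.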

How the data were processed

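RNA of 9 tumours was sequenced (NEBNext Ultra library kit, per the labels' protocols). The authors deposited whole-number counts per gene name, 1 table per tumour, not scaled to depth. HISAT2 2.1.0, StringTie 1.3.5, DESeq2 and the build GRCm38 are named in the submitters' processing notes without a role. The sources used here give neither the counting step nor its strand setting, so reads of Ctsb and Fdft1, and of Ctsz and Nelfcd, which overlap on opposite strands, cannot be told apart (summed counts of 38449 for Fdft1 beside 525493 for Ctsb, and of 33854 for Nelfcd beside 210134 for Ctsz).

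The test across all names was that of edgeR 4.0.16 under R 4.3.3 (TMM, filterByExpr with a minimum count of 10 and a minimum total of 15, robust quasi-likelihood F test, Benjamini-Hochberg adjustment over 18243 names, threshold 0.05). DESeq2 1.42.0 and limma 3.58.1 were alternatives, beside other scalings, filters and leaving out each tumour. Scripts were tested on simulated data. SE is the log2 fold change divided by the root of F. Scores are mean log2 CPM with a prior count of 2. Levels per kb use the longest GENCODE principal transcript, and coordinates and promoters are from RefSeq GRCm38.p6. The genes described and the lists were chosen with earlier results of these data known. In each pathway list the 4 tested genes with the smallest edgeR p and the 2 most abundant were named, in each cell type list at most the 2 most abundant, beside all 10 genes, Spn and the 5 genes most like Cst6. A gene that this rule names is not reported here. Krt8, Krt18, Epcam, Calcr, Oscar, Dcstamp, Tfeb, Drap1, Sf3b2 and Stfa3 were named after their values were seen. The relation to the macrophage score was limited to 6 tumours after the data were seen.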

Additional observations from a re-analysis of the deposited data

Results flagged for a closer look

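Of 34 sets of values within a group, 6 held a tumour far from the others of its group by Dixon's test, where chance gives about 1 in 20. In CD43-KO replicate 3, Cstb was at 350.6 CPM, Ctsl at 1289 CPM and Ctsz at 631 CPM, each the highest of the 5 CD43-KO tumours. The same tumour had the highest sums of muscle markers (1211 CPM) and of adipocyte markers (635.5 CPM). Vec replicate 1 had the lowest adipocyte sum of the 4 Vec tumours, at 53.98 CPM. The log2 fold changes of Cstb, Ctsl and Ctsz without CD43-KO replicate 3 were -0.26, -0.042 and 0.052.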

How the results depend on the processing

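The edgeR test called 0 genes higher and 0 lower in CD43-KO tumours. With no filter on low counts it called 1 lower, DESeq2 called 247 higher and 365 lower, and limma voom with quality weights 190 higher and 372 lower. Leaving out 1 tumour at a time gave 0 to 8 genes higher and 0 to 21 lower, with the most when Vec replicate 3 was left out. Cstb, whose log2 fold change was near 0, turned to 0.079 with total counts alone and to 0.012 with a stricter filter. Leaving out 1 tumour gave ranges of log2 fold change of -0.256 to 0.102 for Cstb, -0.126 to 0.234 for Cst3 and -0.042 to 0.141 for Ctsl, each lowest without CD43-KO replicate 3. The remaining member genes kept their direction under every alternative run. Scaling by total counts alone moved the median log2 fold change of all genes to 0.11. The Pearson r of Cst6 with the macrophage score turned to -0.077 and that of Ctsk with the fibroblast score was 0.87 (adjusted exact permutation p = 0.0515) with total counts alone. When 1 tumour was left out, r with the fibroblast score ranged from 0.88 to 0.92 for Ctsk, 0.77 to 0.91 for Ctsb, 0.73 to 0.85 for Ctsd, 0.74 to 0.95 for Lgmn, -0.076 to 0.62 for Cstb and -0.57 to 0.40 for Ctsl. Of these, Ctsb and Lgmn passed without CD43-KO replicate 2 or 3 and Ctsd without CD43-KO replicate 2. The cause of these shifts was not tested. The relation to the macrophage score over 9 tumours was not run, since the tumours fell into separate clusters, and leaving out 1 of the 6 tumours in turn was not run, since relations were tested only over at least 6 tumours. By limma voom the median log2 fold change of the keratinocyte genes was 0.048. That setting, and leaving Ctse or the stefin A genes out of a count or median, were chosen after seeing the data. No paired analysis was possible because the labels give no replicate number shared between the groups. At these depths the spread between tumours, not counting error, limits the values of the 10 genes.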
